A study of Mus musculus with 33 samples.

Results

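The sites of LSD1, an enzyme that removes methyl groups from lysine 4 of histone H3 (H3K4), were compared with those of MLL1, an enzyme that adds them, in growing C2C12 cells. C2C12 is a mouse myoblast line whose cells divide in rich serum and fuse into myotubes when serum is withdrawn. The members were the 4419 peaks of the single LSD1 list and the 8795 peaks of the pooled MLL1 list on the 19 autosomes, 13214 of the 396699 autosomal peaks in the 9 pooled or single lists of the series. A peak was called shared when it overlapped a peak of the other enzyme by at least 1 bp. MLL1 also had separate lists for replicate 1 (4098 peaks) and replicate 2 (460 peaks), while LSD1 had no replicate.

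All lists came from chromatin immunoprecipitation followed by sequencing of chromatin sonicated to about 250 bp. LSD1, MLL1, Menin, Wdr5 and MLL3 were precipitated from unmodified growing myoblasts in 10% fetal bovine serum with antibodies against the proteins themselves. ING1 was precipitated through a Flag tag from a puromycin-selected line that carries a viral pBabe-puro construct, so it stands for the ectopically expressed protein and not for the endogenous one. Myotube lists (LSD1, ING1 in the same Flag line, and Sin3A) came from cells kept for 96 h in 2% horse serum. The labels of the MLL1 samples disagree, with Menin as the source, MLL in the title and an MLL1 antibody; they were taken as MLL1. For Sin3A the design text names myoblasts and the sample labels name myotubes, and the sample labels were followed.

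As background, LSD1 takes off the mono- and dimethyl marks of H3K4 and works in corepressor complexes, although it also sits at many active promoters and enhancers. MLL1 is the catalytic subunit of a complex that methylates H3K4. Wdr5 is a core subunit that this complex shares with the other H3K4 methyltransferases, and Menin tethers MLL1 to chromatin. ING1 reads trimethylated H3K4 through its PHD finger and belongs to Sin3 histone deacetylase complexes, whose scaffold is Sin3A. MLL3 is the catalytic subunit of a related complex known for monomethylation at enhancers.

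The lists hold peak boundaries only, with no height or read count, so the depth behind each list is unknown and a longer list may reflect deeper sequencing as well as more binding. The pooled partner lists on autosomes held 8114 peaks for ING1, 68934 for Menin and 58123 for Wdr5. The LSD1 list had no mitochondrial peak and no peak under 54 bp, whereas the pooled MLL1 list had 15 mitochondrial peaks and peaks down to 13 bp. Whether the 2 files were filtered in the same way is not given in the sources used here. Each interval on a share is an exact binomial 95% interval that covers counting error alone, since neighbouring peaks are not independent. A peak shared in bulk chromatin may come from different cells or alleles, and these cannot be told apart from joint binding.

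The question was how far the eraser and the writer occupy the same places. Of the LSD1 peaks, 1666 met a pooled MLL1 peak (37.7%, interval 36.3 to 39.1) and 2753 did not. Of the MLL1 peaks, 1560 met an LSD1 peak (17.7%, interval 16.9 to 18.6) and 7235 did not. Most sites of either enzyme thus had no listed peak of the other. Both shares, and which of them was larger, depended on which MLL1 list was used. MLL1 replicate 1 met 22.7% of LSD1 peaks and replicate 2 met 3.12%, a mean of 12.9% ± 13.9 (SD, n = 2 lists). Seen from MLL1, 23.3% of replicate 1 peaks and 29.3% of replicate 2 peaks lay at LSD1, a mean of 26.3% ± 4.31 (SD, n = 2 lists). With either replicate list the share of MLL1 peaks with LSD1 was the larger one, the reverse of the pooled list. The same held with pooled peaks found in at least 1 or in both replicate lists. This reversal follows from list length. The counts of shared LSD1 and MLL1 peaks were close (1004 and 953 for replicate 1, 138 and 135 for replicate 2). The larger share therefore fell to the shorter list, and of these MLL1 lists only the pooled one (8795 peaks) was longer than the LSD1 list (4419). The 2 MLL1 replicates differed far more in how many LSD1 sites they reached than in the share of their own peaks that had LSD1. Replicate 1 has 4098 peaks and replicate 2 has 460, so replicate 2 could reach far fewer LSD1 sites. A further 72 LSD1 peaks met a replicate MLL1 peak but no pooled one, which left 2681 LSD1 peaks with no MLL1 in any list.

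MLL1 peaks with better replicate support lay more often at LSD1. Of the pooled MLL1 peaks, 324 were found in both replicate lists, and 41.7% of those (interval 36.2 to 47.2) met LSD1. Among the 3569 found in at least 1 replicate list the share was 26.2% (interval 24.8 to 27.7). Among the 5226 pooled MLL1 peaks found in neither, 59.4% of the list, the share was 12.0% (interval 11.1 to 12.9). These groups also differed in width, with medians of 1676.5 bp, 748 bp and 498.5 bp. Conversely, 59.9% of MLL1 peaks with LSD1 and 36.4% of those without were found in a replicate list.

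What the classes hold was examined through Menin, Wdr5 and ING1. At LSD1 sites Menin had the largest odds ratio of the 3 with the pooled lists, although not the largest difference in points. It lay at 98.9% of LSD1 peaks with MLL1 (1647 of 1666, interval 98.2 to 99.3) and at 89.8% of those without (2472 of 2753, interval 88.6 to 90.9), an odds ratio of 9.85. Over all LSD1 peaks, 93.2% met Menin, so the pooled Menin list was close to saturation at these sites. The shorter Menin replicate lists separated the classes further. Menin replicate 1 met 94.4% of LSD1 peaks with MLL1 and 68.5% of those without, and replicate 2 met 91.4% and 64.1%, differences of 25.9 and 27.2 percentage points. The mean difference was 26.6 points with an SD of 0.969 (n = 2 lists), against 9.07 points with the pooled Menin list. This SD covers the Menin replicate lists alone, since the LSD1 and MLL1 lists that set the classes were held fixed. The Menin contrast was smaller when the classes were set by a single MLL1 list, with an odds ratio of 5.60 for MLL1 replicate 1 and 3.35 for replicate 2. LSD1 peaks that met MLL1 only in another list then counted as without MLL1. That class held 3415 and 4281 peaks in place of 2753, with Menin at 91.7% and 93.1%. A smaller contrast is therefore in part built into this setting. With MLL1 replicate 2, which marks 138 LSD1 peaks, Menin differed by 4.76 points, Wdr5 by 6.84 and ING1 by 17.0, so the order of the partners by points depended on the list.

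ING1, the reader, was also more frequent where eraser and writer met. It lay at 79.3% of LSD1 peaks with MLL1 (1321 of 1666, interval 77.3 to 81.2) and at 67.5% of those without (interval 65.7 to 69.2), against 71.9% of all LSD1 peaks, with an odds ratio of 1.85. The ING1 replicate lists gave 6.06% against 4.10% for replicate 1, which has only 427 peaks, and 62.1% against 51.9% for replicate 2. The mean difference over them was 6.06 points with an SD of 5.80 (n = 2 lists), so the mean ING1 difference was about as large as the SD between its lists.

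Wdr5 separated the LSD1 classes least. It lay at 92.4% of LSD1 peaks with MLL1 (1540 of 1666, interval 91.1 to 93.7) and at 87.0% of those without (interval 85.6 to 88.2), against 89.0% of all LSD1 peaks, with an odds ratio of 1.83. In the 3 Wdr5 replicate lists the differences were 4.15, 0.826 and 1.63 points, a mean of 2.20 with an SD of 1.74 (n = 3 lists). Every Wdr5 list was higher at the shared class, but in replicates 2 and 3 the classes lay within 2 points of each other (39.1% against 38.2%, and 40.3% against 38.6%). An exact two-sided sign-flip permutation test over replicate lists gave p = 0.5 for Menin and for ING1 and p = 0.25 for Wdr5, the smallest values that 2 and 3 lists allow, so these tests could not reach significance.

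The same contrast was far wider among MLL1 peaks. ING1 lay at 81.5% of MLL1 peaks with LSD1 (1272 of 1560, interval 79.5 to 83.4) and at 24.5% of those without (1776 of 7235, interval 23.6 to 25.6), against 34.7% of all MLL1 peaks, an odds ratio of 13.6. Wdr5 lay at 94.0% (interval 92.7 to 95.1) and 51.8% (interval 50.6 to 52.9), against 59.2% of all MLL1 peaks, an odds ratio of 14.5. Menin lay at 98.8% (interval 98.1 to 99.3) and 68.7% (interval 67.6 to 69.7), against 74.0% of all MLL1 peaks, an odds ratio of 37.0 (58.3 without the start of chromosome 9, as described with the partner combinations). In the pooled MLL1 list, a writer site with the eraser thus nearly always had both complex subunits and usually the reader. A writer site of that list without the eraser lacked ING1 in most cases and Wdr5 in about as many cases as not. The latter did not hold for pooled MLL1 peaks found in both replicate lists. There, peaks without LSD1 had ING1 at 69.3% and Wdr5 at 93.1%.

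**Figure D1:**
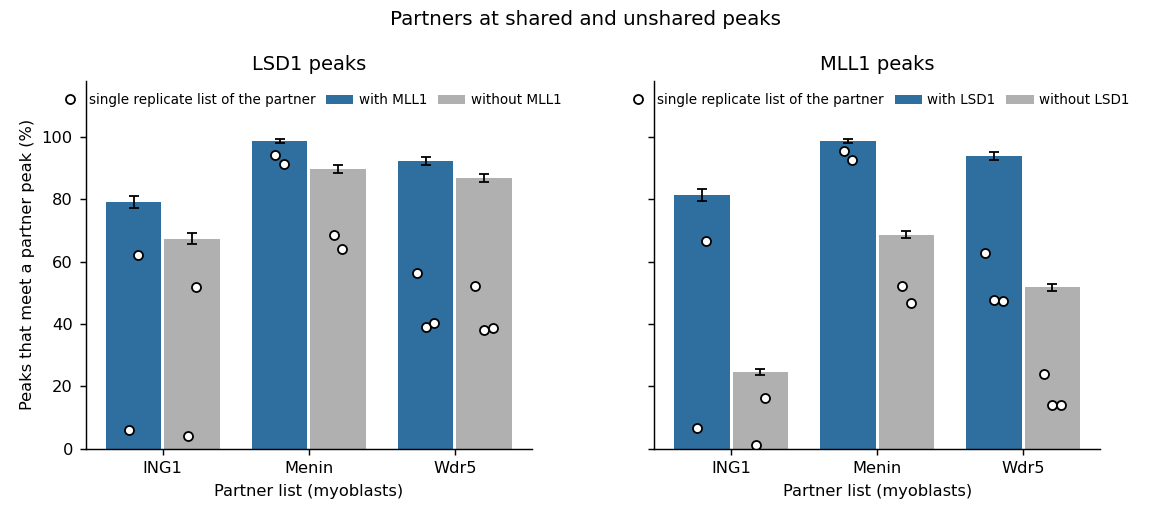
Share of peaks (vertical axis, percent) that met a pooled ING1, Menin or Wdr5 peak, for LSD1 peaks with and without MLL1 (left) and MLL1 peaks with and without LSD1 (right). Bars are pooled partner lists with exact binomial 95% intervals and circles are single replicate lists of the partner; the gap for ING1 is 79.3% against 67.5% on the left and 81.5% against 24.5% on the right.

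Each partner replicate list showed the difference among MLL1 peaks. For Menin the differences were 43.4 and 45.8 points (mean 44.6, SD 1.74, n = 2 lists), and for Wdr5 38.8, 33.8 and 33.4 points (mean 35.3, SD 3.02, n = 3 lists). For ING1 they were 5.37 points in replicate 1 and 50.3 points in replicate 2 (mean 27.8, SD 31.7, n = 2 lists). The exact two-sided sign-flip permutation p was again 0.5, 0.25 and 0.5 for Menin, Wdr5 and ING1, the smallest possible. The sparse ING1 replicate 1 met 6.67% of MLL1 peaks with LSD1 and 1.30% of those without, so its difference in points was small while its odds ratio was 5.43.

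The contrast among MLL1 peaks depended on which MLL1 peaks were taken. With MLL1 replicate 1 in place of the pooled list, Menin lay at 98.4% of peaks with LSD1 and 81.5% of those without, and ING1 at 82.7% and 34.2%. With replicate 2, Menin lay at 97.8% and 96.9%, a difference of 0.855 points, Wdr5 at 95.6% and 91.4%, and ING1 at 88.1% and 66.8%. Among the 324 pooled MLL1 peaks found in both replicate lists, Menin was at 100% with LSD1 and 98.9% without, Wdr5 at 99.3% and 93.1%, and ING1 at 93.3% and 69.3%. Among the 5226 peaks found in neither, Menin was at 98.4% and 61.5%, Wdr5 at 91.8% and 44.6%, and ING1 at 75.7% and 18.4%. At the best supported writer sites ING1 thus still differed by 24.0 points between peaks with and without LSD1, and Menin was nearly everywhere.

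The 3 partners were then read together, which gives 8 combinations. Most eraser sites had all of them. ING1, Menin and Wdr5 were all present at 2790 LSD1 peaks (63.1%), and 44.4% of those (interval 42.6 to 46.3) had MLL1. LSD1 peaks with Menin and Wdr5 but no ING1 numbered 925, of which 31.8% had MLL1, and those with ING1 and Menin but no Wdr5 numbered 233, of which 31.3% had MLL1. With Menin alone, 24.0% of 171 had MLL1. Without Menin the share was much lower. It was 4.84% of the 124 LSD1 peaks with ING1 and Wdr5, 9.68% of the 31 with ING1 alone and 1.05% of the 95 with Wdr5 alone. In total, 40.0% of the 4119 LSD1 peaks with Menin and 6.33% of the 300 without it had MLL1 (intervals 38.5 to 41.5 and 3.86 to 9.71). The split by ING1 was 41.6% with and 27.8% without, and by Wdr5 39.1% with and 26.0% without.

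LSD1 peaks with none of the 3 partners broke this order, since 9 of 50 (18.0%, interval 8.58 to 31.4) had MLL1. Of those 9, 7 lay in a single stretch at the beginning of the listed part of chromosome 9, between mm9 positions 3000022 and 3035961, which was singled out after the values were seen. In that stretch LSD1 had 11 peaks and MLL1 had 28, and 9 of the 11 LSD1 peaks met MLL1. The 11 LSD1 peaks had a median width of 173 bp and the 28 MLL1 peaks of 894.5 bp. Menin, ING1 and Wdr5 were listed there too, but as 10, 16 and 17 slivers with median widths of 23, 22.5 and 27 bp. MLL3 had 33 peaks there, and the myotube lists had 31 for LSD1, 24 for ING1 and 10 for Sin3A. Peaks in this stretch were thus not particular to LSD1 and MLL1 of myoblasts. The stretch held 9 of the 19 LSD1 peaks in the genome that had MLL1 without Menin. With peaks starting before position 3100000 of chromosome 9 left out of every list, 3.45% of the 290 LSD1 peaks without Menin had MLL1, and the Menin odds ratio was 18.7 in place of 9.85 at LSD1 peaks and 58.3 in place of 37.0 at MLL1 peaks. What sets this stretch apart was not tested.

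Among MLL1 peaks the combinations spread more widely, and the eraser was concentrated in one of them. All 3 partners were present at 2788 MLL1 peaks (31.7%), and 43.3% of those (interval 41.4 to 45.2) had LSD1. They made up 77.4% of the MLL1 peaks with LSD1 and 21.9% of those without. Menin and Wdr5 without ING1 was found at 1974 MLL1 peaks, and 12.7% of these (interval 11.2 to 14.2) had LSD1. Menin alone was found at 1539, of which 2.01% had LSD1. No partner at all was found at 1819 MLL1 peaks (20.7%), of which 5 (0.275%, interval 0.0893 to 0.640) had LSD1. By single partners, LSD1 lay at 41.7% of MLL1 peaks with ING1 and 5.01% without it, at 28.1% with Wdr5 and 2.62% without it, and at 23.7% with Menin and 0.831% without it.

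**Figure D2:**
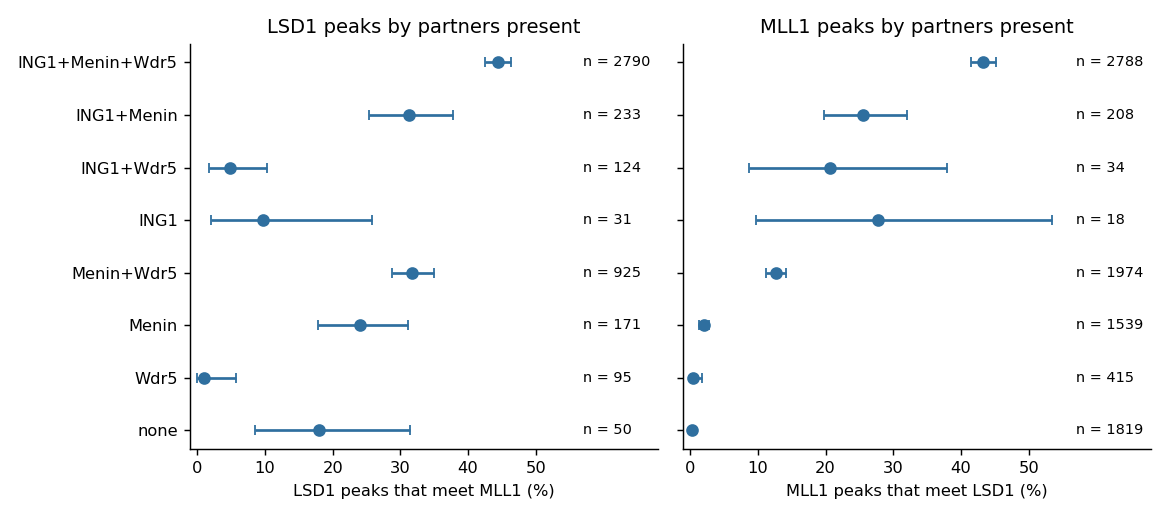
Share of LSD1 peaks that met MLL1 (left) and of MLL1 peaks that met LSD1 (right), in percent with exact binomial 95% intervals, for each of the 8 combinations of ING1, Menin and Wdr5 (rows), with the number of peaks at the right. The combination of all 3 is highest on both sides, at 44.4% and 43.3%, and the row with no partner stands at 18.0% for LSD1 and 0.275% for MLL1.

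The 2 enzymes had nearly equal numbers of peaks with all 3 partners, 2790 and 2788, although the MLL1 list is the longer. Among peaks with Menin, ING1 still differed between classes. At LSD1 peaks with Menin, ING1 lay at 79.7% with MLL1 and 69.2% without it, and Wdr5 at 93.1% and 88.3%. At MLL1 peaks with Menin, ING1 lay at 81.8% with LSD1 and 34.9% without it, and Wdr5 at 94.5% and 66.5%. Replicate support was compared for 2 of the combinations. Of the MLL1 peaks with neither LSD1 nor any partner, 20.4% were found in a replicate list, against 53.0% of MLL1 peaks without LSD1 that had all 3 partners and 63.7% of those with LSD1 and all 3.

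Peak width went with these shares for MLL1 peaks and not, in a steady way, for LSD1 peaks. LSD1 peaks with and without MLL1 had nearly the same width, a median of 399 bp (quartiles 298.25 and 556.75) against 389 bp (291 and 535). MLL1 peaks with LSD1 were wider than those without, 878 bp (598.75 and 1290.5) against 530 bp (393 and 734), and 40.0% of them against 12.3% reached 1 kb. When peaks were sorted into 10 width classes, the share of LSD1 peaks with MLL1 ran between 32.4% and 46.7% with no steady trend, while the share of MLL1 peaks with LSD1 went from 3.30% in the narrowest class to 45.6% in the widest. The presence of all 3 partners went with it, from 6.49% to 73.7% of MLL1 peaks. By the overlap rule alone a wider peak is more likely to meet any list, and this was not separated from the trends. Among MLL1 peaks with all 3 partners the share with LSD1 still went from 21.1% (interval 11.4 to 33.9) to 54.7% (interval 50.8 to 58.6), and among the rest from 2.07% to 20.3%.

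**Figure D3:**
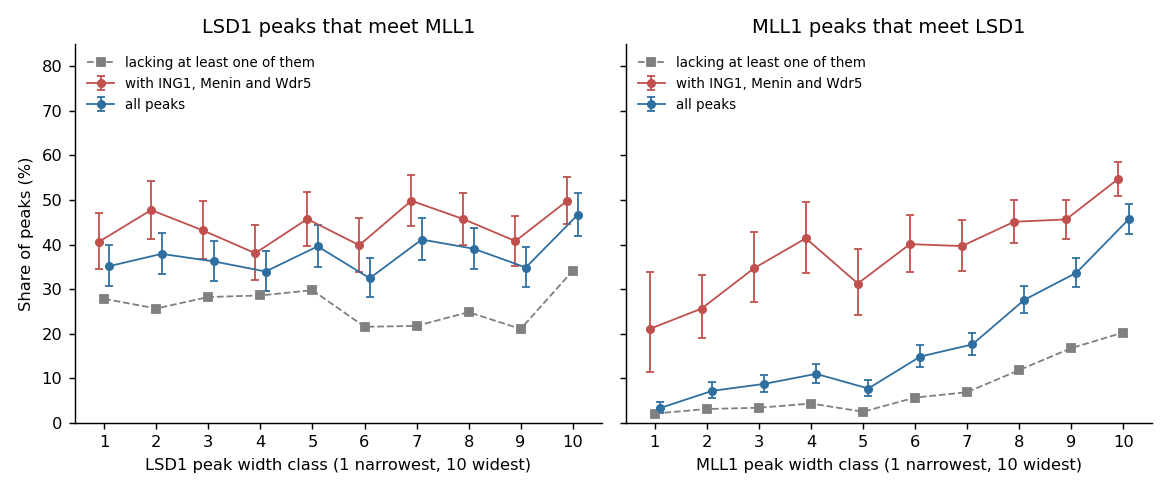
Share of peaks that met the other enzyme (vertical axis, percent) in 10 classes of peak width from narrowest to widest, for LSD1 peaks (left) and MLL1 peaks (right), with exact binomial 95% intervals on the solid lines. LSD1 stays between 32.4% and 46.7% over all peaks, and MLL1 climbs from 3.30% to 45.6%, with peaks that have ING1, Menin and Wdr5 above the rest in each class.

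Comparing only peaks of like width lowered the odds ratios among MLL1 peaks and left those among LSD1 peaks almost as they were. Within the 10 width classes, the odds ratio among MLL1 peaks was 8.20 for ING1, 9.09 for Wdr5 and 20.6 for Menin, in place of 13.6, 14.5 and 37.0. Among LSD1 peaks it was 1.81 for ING1, 1.78 for Wdr5 and 9.53 for Menin. A difference in width therefore accompanied part of the MLL1 contrast in each of the 3 partners.

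Where both enzymes were listed, the centre of the LSD1 peak usually lay within the MLL1 peak. The shared MLL1 peaks were also the wider ones, with a median of 878 bp against 399 bp for shared LSD1 peaks. A wider peak holds the centre of a peak it meets more often by width alone. There were 1706 overlapping pairs, and in 81.7% of them the centre of the LSD1 peak was inside the MLL1 peak. Of the 1666 shared LSD1 peaks, 868 (52.1%) lay wholly inside MLL1. The centres were a median of 236 bp apart (quartiles 110.5 and 390 bp), about the size of a sonicated fragment. LSD1 covered a median of 38.9% of the shared MLL1 peak. Most shared MLL1 peaks held 1 LSD1 peak (1426), 124 held 2, 9 held 3 and 1 held 5. Of the 257 MLL1 peaks of at least 2 kb, 54.9% had LSD1, and of the 26 of at least 5 kb, 65.4% had it.

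Unshared peaks were mostly far from the other enzyme and not just beyond its edge. LSD1 peaks without MLL1 lay a median of 38083 bp from the nearest MLL1 peak (quartiles 8230 and 94386 bp), and 9.70% of them were within 500 bp. MLL1 peaks without LSD1 lay a median of 103992 bp from the nearest LSD1 peak (quartiles 21921 and 345727 bp), and 4.82% were within 500 bp. At distances over 100 kb there were 23.7% of the unshared LSD1 peaks and 50.9% of the unshared MLL1 peaks. The median gap depends on how dense the other list is, and the MLL1 list has more peaks.

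The partner peaks themselves showed the same classes from the other side. Of the ING1 peaks, 36.3% met LSD1 and 38.1% met MLL1, while the long lists of Menin (5.26% and 8.16%) and Wdr5 (6.04% and 8.64%) met them seldom. LSD1 lay at 42.6% of ING1 peaks with MLL1 and 32.4% of those without it (intervals 40.9 to 44.4 and 31.1 to 33.7). For Menin peaks it was 29.8% with MLL1 and 3.08% without, and for Wdr5 peaks 31.7% and 3.61%. The eraser was thus more frequent at partner peaks with the writer for each of the 3, by 10.2 points for ING1, 26.7 for Menin and 28.1 for Wdr5. These differences were not computed at like width of the partner peaks.

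Partner peaks were widest where they met both enzymes. A wider peak is more likely to meet another list by the overlap rule alone, and partner peaks of like width were not compared. Menin peaks with LSD1 and MLL1 had a median width of 3125 bp, those with LSD1 only 2019 bp, those with MLL1 only 1807 bp and those with neither 620 bp. For Wdr5 the medians were 1654.5, 1468, 1119 and 579 bp, and for ING1 1001, 836, 727.5 and 604 bp. The order of the 4 classes was the same for the 3 partners, with quartile ranges that overlapped between neighbouring classes for each. Replicate support followed the same order: 99.3%, 90.7%, 77.2% and 22.0% of Menin peaks in these classes were found in at least 1 Menin replicate list, 83.7%, 80.8%, 54.1% and 9.94% for Wdr5, and 78.4%, 72.6%, 59.7% and 43.9% for ING1.

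**Figure D4:**
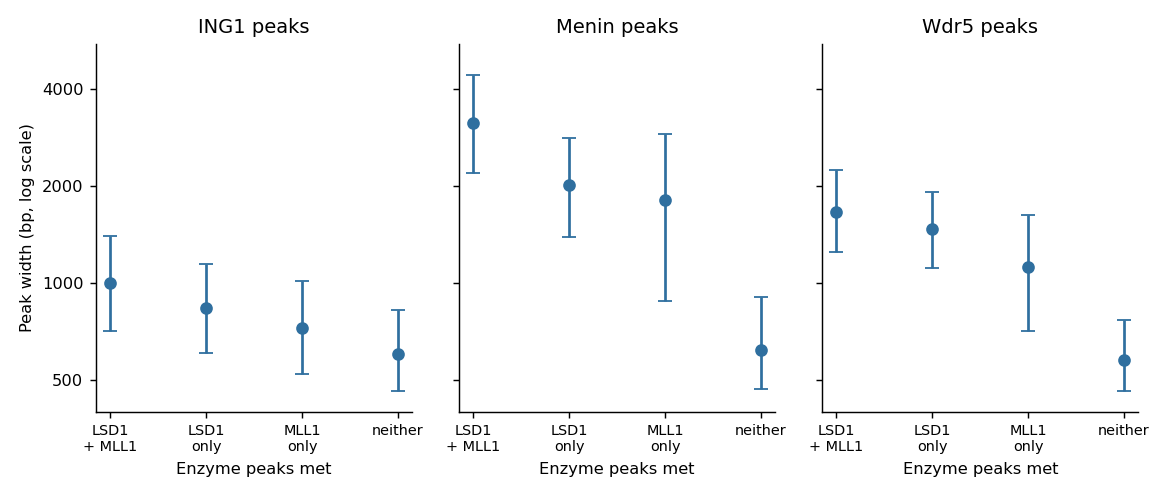
Width of ING1, Menin and Wdr5 peaks (vertical axis, bp on a log scale) by the enzyme peaks they met; points are medians and bars run from the lower to the upper quartile. Peaks that met both enzymes are widest for each partner, with 3125 bp for Menin against 620 bp for Menin peaks that met neither.

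MLL3, a writer of a different complex, did not follow MLL1 at LSD1 sites. It lay at 16.6% of LSD1 peaks with MLL1 (interval 14.8 to 18.4) and at 21.4% of those without (interval 19.8 to 22.9), against 19.6% of all LSD1 peaks, an odds ratio of 0.731, and was lower with MLL1 on 13 of the 19 autosomes. At LSD1 peaks with all 3 partners the values were 16.1% and 21.5%. Among MLL1 peaks it was the other way round, with MLL3 at 21.9% with LSD1 and 16.1% without, against 17.1% of all MLL1 peaks (odds ratio 1.46, or 1.32 within width classes). The MLL3 list is the longest of the series, with 208538 autosomal peaks that cover 163 Mb. The level of its shares therefore cannot be set against those of the shorter lists. MLL3 has a single list, so no replicate bears on either difference.

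The myotube lists show what was listed at the same positions after differentiation. On autosomes they hold 16361 peaks for LSD1, against 4419 in myoblasts, 9570 for ING1 (pooled) and 13845 for Sin3A (pooled). LSD1 in myotubes lay at 48.4% of myoblast LSD1 peaks with MLL1 (interval 46.0 to 50.8) and at 43.3% of those without (interval 41.5 to 45.2), against 45.2% of all LSD1 peaks. ING1 in myotubes lay at 81.5% and 78.9%, against 79.9% of all, and Sin3A in myotubes at 86.5% and 83.9%, against 84.9%. The odds ratios were 1.23, 1.18 and 1.22. Among LSD1 peaks with all 3 myoblast partners, Sin3A lay at 90.6% with MLL1 and 90.7% without, ING1 at 86.0% and 87.9%, and LSD1 at 52.5% and 49.8%. The replicate lists of ING1 and Sin3A in myotubes were not all on one side: ING1 differed by 1.74, 1.54 and -0.962 points and Sin3A by 3.26 and -1.18 points, with versus without MLL1. The presence of MLL1 in myoblasts thus went with little difference in what was listed at LSD1 sites in myotubes.

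At MLL1 sites of the pooled list the presence of LSD1 went with much more. Of these sites, 59.9% with LSD1 and 36.4% without it were found in an MLL1 replicate list. The myotube contrast was not computed at MLL1 peaks with replicate support. LSD1 in myotubes lay at 52.6% of MLL1 peaks with myoblast LSD1 and 13.7% of those without, against 20.6% of all MLL1 peaks. ING1 in myotubes lay at 84.4% and 26.1%, against 36.4%, and Sin3A in myotubes at 89.3% and 31.8%, against 42.0%. The odds ratios of 6.97, 15.3 and 17.9 were 4.37, 9.54 and 11.4 within width classes. Among MLL1 peaks with all 3 myoblast partners the gaps were smaller, 56.2% against 37.8% for LSD1, 88.2% against 75.3% for ING1 and 92.8% against 82.5% for Sin3A. The single replicate lists were higher with LSD1 in each of the 3 ING1 lists (19.7, 23.6 and 0.938 points) and both Sin3A lists (58.2 and 3.87 points). The third ING1 list has 122 peaks and the second Sin3A list 426, so their differences in points are bounded by their length.

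The share of LSD1 peaks with MLL1 differed between autosomes. It was 49.1% on chromosome 1 (130 of 265, interval 42.9 to 55.2) and 15.4% on chromosome 7 (24 of 156, interval 10.1 to 22.0), with a median of 38.2%. Chromosome 7 had 1.37 MLL1 peaks per LSD1 peak, the fewest, against 2.74 on chromosome 15, and its LSD1 peaks without MLL1 met Menin at 70.5%, the lowest such value. The share of MLL1 peaks with LSD1 ran from 11.7% on chromosome 7 to 22.4% on chromosome 3. The direction of the partner contrasts held on most autosomes. Among LSD1 peaks ING1 and Menin were higher with MLL1 on 18 and Wdr5 on 17, and among MLL1 peaks all 3 were higher with LSD1 on each of the 19. The exception for Menin was chromosome 9, where it lay at 88.6% of LSD1 peaks with MLL1 and 91.4% of those without, and where the stretch described above lies.

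**Figure D5:**
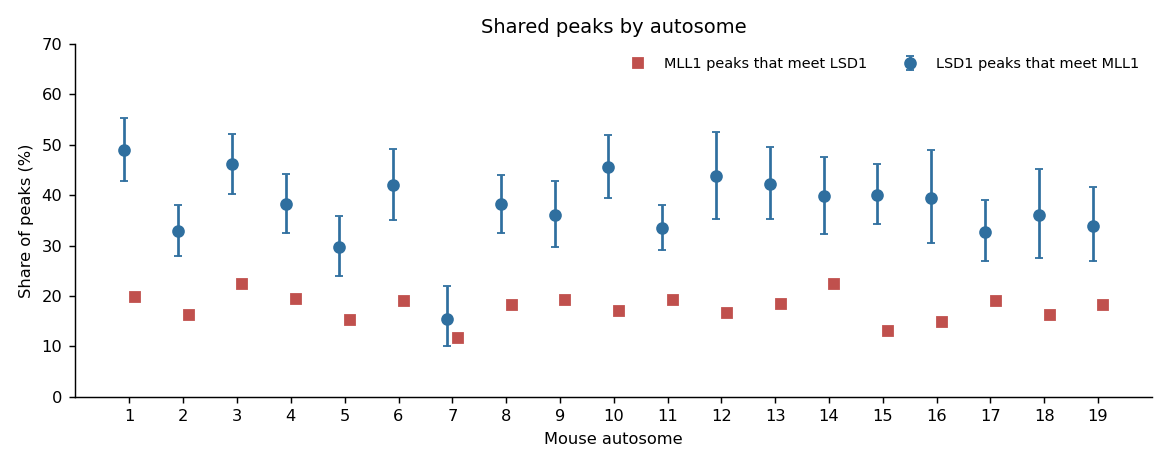
Share of LSD1 peaks that met MLL1 (circles, with exact binomial 95% intervals) and of MLL1 peaks that met LSD1 (squares) on each of the 19 mouse autosomes (horizontal axis), in percent. Chromosome 7 is lowest for both, at 15.4% and 11.7%, and chromosome 1 is highest for LSD1, at 49.1%.

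Single regions show what lies behind these shares, with coordinates in build mm9 and no gene named, since no annotation of that build was used here. The widest of the 166 LSD1 peaks at an MLL1 peak found in both replicate lists was chr13:29043537-29045205, 1669 bp long. It lay wholly inside an MLL1 peak of 2414 bp, a Menin peak of 6867 bp, an ING1 peak of 2898 bp and a Wdr5 peak of 2059 bp, and every replicate list of the 4 factors had a peak there. In myotubes, ING1 covered all of it, Sin3A 56.1% and LSD1 32.0%. The next, chr8:82163194-82164654, lay inside an MLL1 peak of 2699 bp and a Menin peak of 9310 bp and was wholly covered by LSD1 in myotubes as well. The third, chr10:119912065-119913343, lay inside a Wdr5 peak of 4478 bp, but ING1 and Sin3A of myotubes were not listed there and LSD1 of myotubes covered 77.7%. The other regions by this rule were chr10:17443436-17444596, chr11:68505565-68506688 and chr10:36857496-36858588. Each of the 6 met ING1, Menin and Wdr5, and none met MLL3. For comparison, 80.1% of LSD1 peaks in the widest of the 10 width classes had all 3 partners. MLL3 lay at 16.1% of LSD1 peaks with MLL1 and all 3 partners. The counts over 6 regions therefore do not set them apart from other wide LSD1 peaks.

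The widest LSD1 peaks with no MLL1 in any list had the same partners. The first, chr6:86798676-86800325 (1650 bp), was covered by ING1 entirely, by Wdr5 over 99.4% and by Menin over 92.1%, and the nearest MLL1 peak was 152135 bp away. The fourth, chr6:42301692-42303104, lay inside a Menin peak of 8386 bp and an MLL3 peak, 746315 bp from MLL1. The second, chr8:86724789-86726325, and the sixth, chr10:80261329-80262579, were only 576 and 255 bp from an MLL1 peak, so they were unshared by a small margin. The remaining regions were chr4:126699378-126700838, 3352 bp from MLL1, and chr1:164669435-164670705, 7114 bp from it. Each of these 6 LSD1 peaks met ING1, Menin and Wdr5 in myoblasts and LSD1, ING1 and Sin3A in myotubes. They were picked by width, and 80.1% of LSD1 peaks in the widest of the 10 width classes had all 3 myoblast partners. Of the LSD1 peaks with all 3 partners and no pooled MLL1 peak, 49.8% met LSD1 of myotubes, 87.9% ING1 of myotubes and 90.7% Sin3A of myotubes.

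The widest of the 189 replicated MLL1 peaks without LSD1 were broad domains. The widest, chr15:102804296-102814818 (10523 bp), lay inside a Menin peak of 48033 bp, and Wdr5 covered 93.6% of it in 6 peaks and ING1 46.9% in 3. The nearest LSD1 peak was 5708 bp away. At chr6:52178320-52185203 (6884 bp), inside a Menin peak of 33220 bp, Wdr5 covered 95.2% and ING1 52.0%, and LSD1 was 2370 bp away. At chr16:43500797-43509607 (8811 bp) Menin covered 99.9% and Wdr5 46.6%, and no ING1, Sin3A or myotube LSD1 peak was listed. At chr13:63372676-63380578 (7903 bp) ING1 covered 7.06%, and LSD1 of myotubes, absent in myoblasts, covered 50.1% in 5 peaks. The others were chr11:18913054-18919447 and chr15:5189304-5195168, where ING1 covered 41.3% and 31.6%. ING1 thus covered from none to 52.0% of these broad writer domains, while Menin covered between 98.4% and 100% of each. Among all MLL1 peaks found in both replicate lists without LSD1, 98.9% met Menin and 69.3% met ING1.

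The MLL1 peaks that held most LSD1 peaks were broad as well. The pick favours breadth, since ties were broken by width and a wider peak can hold more LSD1 peaks. At chr3:137727555-137733884 (6330 bp) 5 LSD1 peaks together covered 34.6%, ING1 covered 89.4%, Wdr5 97.0% and Menin all of it, and MLL3 covered 52.5%. At chr12:74139472-74148090 (8619 bp) 3 LSD1 peaks covered 18.5%, ING1 covered 45.4%, and Sin3A of myotubes covered 79.5% in 6 peaks. The other regions, with 3 LSD1 peaks each, were chr19:36190610-36194988, chr8:35870320-35874184 and chr4:109336082-109339930. In all 5 the MLL1 peak lay entirely within 1 Menin peak, of 6736 to 22988 bp. Menin met 98.8% of all MLL1 peaks with LSD1, so its presence does not set these 5 apart.

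Only 41 LSD1 peaks met none of MLL1, ING1, Menin and Wdr5. The widest was chr2:98506611-98507484 (874 bp), which met 2 of the 3 Wdr5 replicate lists although no pooled Wdr5 peak. It was 2562 bp from an MLL1 peak and had no myotube peak. At chr10:80730890-80731509 (620 bp) Sin3A of myotubes covered 95.8% and LSD1 of myotubes 55.2%, and at chr4:140615928-140616495 Sin3A of myotubes covered 93.1%. The other 2, chr8:97399433-97400061 and chr4:148892454-148893007, had no pooled peak of any other list, and at the latter 1 Menin replicate list had a peak.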

How the data were processed

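Peak boundaries (chromosome, left and right end in bp) were used as deposited, per the file headers; no height, score or read count accompanies them. Per the submitters' processing notes, the tools were bedtools 2.17.0, Bowtie 0.12.9 and SAMtools 0.1.19, with builds NCBIM37 and mm9, listed without roles. How each was used, which peak caller and threshold applied and how replicates were pooled is not given in the sources used here. Starts are printed counted from 1, left ends being taken as counted from 0. Overlaps were computed on 19 autosomes with Python 3.11.15 and NumPy 2.4.6, intervals with SciPy 1.17.1 and plots with Matplotlib 3.10.9, and the overlap, odds ratio and width-class code was tested on simulated lists. Replicates are numbered samples that the labels do not tie to separate cultures, so their spread may be technical. Odds ratios within width classes are Mantel-Haenszel estimates. Named regions were the 6 widest LSD1 peaks at an MLL1 peak found in both replicate lists, the 6 widest LSD1 peaks with no MLL1 peak, the 6 widest such MLL1 peaks without LSD1, the 5 MLL1 peaks with most LSD1 peaks, and the 5 widest LSD1 peaks without any of 4 factors. Members, lists and tests were chosen with earlier results of these data known. Alternatives covered the overlap rule, list length and width, chromosome X, replicates and width classes. Samples of input chromatin and of RNA were not analysed here.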

Additional observations from a re-analysis of the deposited data

How the results depend on the processing

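None of the partner differences and odds ratios changed direction in any alternative. The overlap shares cannot be negative, so no reversal of them was possible, but which of them was larger changed with the MLL1 list. Of the 134 alternative values, 77 stayed within the spread of their result. The spread was the SD over MLL1 replicate lists for overlap shares and over partner replicate lists for partner differences. For odds ratios it was the 95% interval from peak counts, which covers counting error alone. Among partner differences the SD ran from 0.969 points (Menin at LSD1 peaks) to 31.7 points (ING1 at MLL1 peaks). The count of 77 thus depends on how far the replicate lists differed and does not measure robustness. Values in each case follow the order ING1, Menin, Wdr5 unless named. For LSD1 peaks at MLL1 the share was 23.2% with the union of the MLL1 replicate lists, 23.4% with pooled peaks found in at least 1 of them, 3.76% with those found in both, and 3.12% to 22.7% with 1 MLL1 replicate left out. For MLL1 peaks at LSD1 these were 23.4%, 26.2%, 41.7% and 23.3% to 29.3%, and 27.8% with lists of equal length. The partner difference at LSD1 peaks for ING1 was 19.2 points in the wider 50% of each list, 2.95 with ING1 peaks in every replicate list and 1.96 to 17.0 with 1 replicate left out. For Wdr5 it was 2.41 with Wdr5 peaks in every replicate list and 1.73 to 6.84 with 1 replicate left out. For Menin it was 10.8 points with an overlap of 50% of the shorter peak, 6.74 for peaks within 500 bp, 10.3 in the wider 50%, 6.55 with the MLL1 union, 7.48 and 6.43 with MLL1 peaks found in at least 1 and in both replicates, 7.86 with 400 bp windows, 15.9 with the union of Menin replicates, 31.6 with Menin peaks in both, and 4.76 to 27.2 with 1 replicate left out. At MLL1 peaks the ING1 difference was 24.0 points with MLL1 peaks found in both replicates, 5.44 with ING1 peaks in both, 21.4 without MLL1 replicate 1, and 5.37 to 50.3 with 1 replicate left out. The Menin difference there was 17.0 points in the wider 50%, 16.7 with the MLL1 union, 17.8 and 1.06 with MLL1 peaks found in at least 1 and in both replicates, 16.1 with lists of equal length, 41.6 with the union of Menin replicates, 45.9 with Menin peaks in both, and 0.855 to 45.8 with 1 replicate left out. The Wdr5 difference there was 30.0, 30.2, 31.2, 6.14, 29.1, 46.0 and 24.7 points in the same settings, and 4.17 to 44.0 with 1 replicate left out. Within 10 width classes the odds ratios at MLL1 peaks were 8.20, 20.6 and 9.09. Without the start of chromosome 9 the Menin odds ratio was 18.7 at LSD1 peaks and 58.3 at MLL1 peaks. The 400 bp windows and the chromosome 9 setting were chosen after seeing the data. The cause was not tested for any of these shifts, beyond the fewer peaks that some settings hold by construction. No paired analysis was possible because LSD1 has 1 list and the results come from no fit over samples that could hold a replicate block. As a description, MLL1 replicate 1 peaks met Menin replicates 1 and 2 at 76.4% and 71.0%, ING1 replicates 1 and 2 at 3.34% and 33.6%, and Wdr5 replicates 1 to 3 at 40.9%, 25.7% and 25.8%. For MLL1 replicate 2 peaks these were 95.4% and 95.9%, 8.70% and 60.4%, and 62.4%, 48.3% and 46.7%, so for ING1 and Wdr5 the same partner list was higher for both MLL1 replicates, whatever its number. Unknown depth limits each absent peak to "not listed".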
